A study of Mus musculus with 4 samples.

Results

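The 7 Hedgehog pathway genes *Dhh*, *Ptch1*, *Smo*, *Gli1*, *Gli2*, *Gli3* and *Hhip* were examined cell class by cell class in single-cell RNA counts of the proximal part of the mouse testis. They were chosen by symbol, and all 7 were found among the 31053 genes listed in each of the 4 libraries. The tissue was the rete testis (RT) with the seminiferous tubules next to it, dissected from C57BL/6 pups at postnatal day 14 (P14). The 2 control libraries were labelled SF1Cre and the 2 *Sox17*-cKO libraries SF1Cre:Sox17flox/flox, whereas the methods of the study describe the controls as littermates with floxed alleles and no Cre. Cre was driven by *Nr5a1*, which encodes SF1, a factor of gonadal and adrenal somatic cells, so recombination outside the RT was possible and was not measured here. Each library was a pool of 3 pups, and p-values between genotypes therefore measured the spread between pools. Between classes, where the library was a block, they measured how far class differences varied from pool to pool. Interstitial cells, which lie between the tubules, were removed with the supernatant during dissociation, so those captured were the remainder.

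Hedgehog ligands are secreted proteins that bind Patched receptors on neighbouring cells. Ligand binding relieves the repression of Smoothened by Patched, and GLI transcription factors then activate target genes, among them *Gli1*, *Ptch1* and *Hhip*, of which the latter pair limits the signal. In the testis, Desert hedgehog (DHH) is made by Sertoli cells, the supporting cells of the tubules, and acts on peritubular myoid cells, which surround the tubules, and on the precursors of steroid-producing Leydig cells.

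In GRCm38 with GENCODE vM21, *Dhh* lies on chromosome 15 (98891152 to 98898540, minus strand), *Ptch1* on chromosome 13 (63508328 to 63573598, minus strand) and *Smo* on chromosome 6 (29735503 to 29761365, plus strand). *Gli1* lies on chromosome 10 (127329882 to 127341974, minus strand), *Gli2* on chromosome 1 (118834132 to 119053619, minus strand), *Gli3* on chromosome 13 (15463235 to 15730026, plus strand) and *Hhip* on chromosome 8 (79965851 to 80058006, minus strand). All 7 are protein-coding. *Dhh* shares 3389 bases with *Rhebl1* on the same strand and 1825 bases with the antisense gene *Gm49442*. *Gli1* shares 9584 bases with the antisense gene *Gm47200*, which had at most 2 UMIs in any class. *Rhebl1* was 7.25 ± 1.49 CPM (UMIs per 1000000 UMIs of the class, SD, n = 4 libraries) in Sertoli-like cells and 10.2 ± 3.35 CPM in germ-like cells. How reads shared by overlapping genes were assigned was not tested.

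The 250 bases before the RefSeq start (GRCm38.p6, minus strand) are shown for the ligand, which was highest in Sertoli-like cells, and for the pair of target genes that were highest together in peritubular myoid-like cells. Capitals mark GGGCGG or its reverse complement CCGCCC, the core of the GC box. The *Dhh* sequence is chr15:98898541-98898790, that of *Ptch1* is chr13:63565736-63565985, inside the GENCODE span of the gene, and that of *Hhip* is chr8:80058009-80058258.
Dhh: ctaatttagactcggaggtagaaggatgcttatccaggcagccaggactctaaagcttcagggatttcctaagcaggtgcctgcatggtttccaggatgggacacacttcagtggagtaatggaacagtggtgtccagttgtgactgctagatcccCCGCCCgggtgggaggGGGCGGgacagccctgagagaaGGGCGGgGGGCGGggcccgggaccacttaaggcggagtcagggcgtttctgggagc
Ptch1: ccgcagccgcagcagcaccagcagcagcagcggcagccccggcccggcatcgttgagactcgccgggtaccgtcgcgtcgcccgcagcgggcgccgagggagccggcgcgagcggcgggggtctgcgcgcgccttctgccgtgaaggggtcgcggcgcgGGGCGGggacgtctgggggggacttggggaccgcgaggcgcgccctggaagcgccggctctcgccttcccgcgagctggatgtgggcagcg
Hhip: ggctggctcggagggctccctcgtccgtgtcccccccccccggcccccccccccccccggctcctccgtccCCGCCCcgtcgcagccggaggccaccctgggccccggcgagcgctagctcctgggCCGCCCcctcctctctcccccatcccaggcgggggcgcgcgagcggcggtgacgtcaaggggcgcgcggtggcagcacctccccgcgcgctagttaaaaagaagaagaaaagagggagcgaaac
RefSeq promoter sequences matched 6 of the 7 members, all but *Gli1*. GGGCGG, on either strand, occurred 4 times before *Dhh*, at 2 places each before *Gli3* and *Hhip*, at 1 each before *Gli2* and *Ptch1* and not before *Smo*, and 33.0% of 32536 such sequences held it. The GLI-binding sequence GACCACCCA was in none of the 6, and in 0.218% of all promoters. Its shorter core ACCACCC, which overlaps it, was in *Gli2* alone, and in 3.92% of all promoters.

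The libraries held 46001 barcodes, of which 22567 had 1000 to 4500 detected genes and were kept, with 33649565 to 42011650 UMIs per library. Median UMIs per kept cell were 6027 and 7872 in control 1 and 2 and 5040 and 6420.5 in *Sox17*-cKO 1 and 2. Pairs of libraries shared 20 to 43 cell barcodes. *Sox17*, the targeted gene, measured 355.6 and 311.7 CPM in RT-like cells of control 1 and 2, against 45.5 and 34.7 CPM in *Sox17*-cKO 1 and 2. In endothelial-like cells it was 507.8 and 344.2 CPM in the controls and 102.0 and 101.0 CPM in *Sox17*-cKO. These endothelial-like values rest on 33, 62, 10 and 18 UMIs in the same order, from 8 to 26 cells per library. Genotypes were not tested in that class. By in situ hybridization in older mice, the study reported that *Sox17* was kept in the vessels of *Sox17*-cKO. From these same single-cell libraries it reported a decrease specific to its RT cluster, whereas the endothelial-like values here were also lower in *Sox17*-cKO. Clustering gave 19 clusters, named from marker genes with limits set after the data were seen, and class names were thus rebuilt here. The Sertoli-like class (5976 cells in 3 clusters, of which the largest was led by *Clu* and *Inha*) leaves out the 220 Sertoli-like cells of the Sertoli valve (SV), where tubules join the RT. The other classes were peritubular myoid-like (2346 cells; *Myh11*, *Acta2*, *Cnn1*), fibroblast-like (2829; *Lum*, *Col1a1*), stromal-like (1446; *Dlk1*, *Osr1*), Leydig-like (253; *Cyp17a1*, *Cyp11a1*, *Hsd3b1*, *Insl3*), RT-like (227), pericyte-like (296), endothelial-like (72), macrophage-like (296) and germ-like (6938). *Hhip* and *Dhh* were among the 10 leading genes of the myoid-like cluster and of the largest Sertoli-like cluster, although the members were kept out of the clustering. Each class had UMIs of all its own markers in every library, except that 1 of 7 Leydig markers was at 0 in control 1, which had 13 Leydig-like cells. Clusters left unnamed held 1668 cells, 8.18% and 2.03% of control 1 and 2 and 14.9% and 3.87% of *Sox17*-cKO 1 and 2.

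*Dhh*, the ligand, was highest in Sertoli-like cells. Its level there was 126.8 and 180.1 CPM in control 1 and 2 and 98.7 and 251.8 CPM in *Sox17*-cKO 1 and 2, a mean of 164 ± 67.4 CPM (SD, n = 4). SV Sertoli-like cells were below this class in every library, at 41.0, 104.4, 62.4 and 105.9 CPM in the same order. The difference between these classes was -1.12 on the log2 scale (SE 0.29, edgeR adjusted p = 0.0028), and -1.03 with DESeq2, not past the threshold of 0.05 (adjusted p = 0.076). In such sums over a class, fewer expressing cells and less RNA per cell cannot be told apart. Endothelial-like cells (57.0 ± 24.7 CPM) and RT-like cells (22.1 ± 15.0 CPM) came next, and neither these neighbours nor SV Sertoli-like and endothelial-like cells differed past the threshold. In the remaining 7 classes the mean was 2.11 to 6.47 CPM, with no neighbours apart. RT-like cells were above the next of these, the fibroblast-like cells (adjusted p = 0.0077).

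Within the Sertoli-like class, the cluster led by *Clu* and *Inha* had the most *Dhh*, 197 ± 73.1 CPM, against 93.7 ± 45.6 and 99.9 ± 52.9 CPM in the other clusters. It exceeded both of these, and the SV Sertoli-like cells, in each library. The others did not, since SV Sertoli-like cells were above the former in *Sox17*-cKO 1 (62.4 against 58.5 CPM) and above the latter in control 2 (104.4 against 91.0 CPM) and *Sox17*-cKO 1 (62.4 against 50.5 CPM). The last of the 3 clusters had a median of 29.5% mitochondrial UMIs and supplied 258 and 28 cells in the controls and 441 and 112 cells in *Sox17*-cKO. The other Hedgehog ligands were nearly absent, with 0 UMIs of *Shh* and 3 of *Ihh* among 34117628 UMIs of Sertoli-like cells.

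The low *Dhh* values outside the Sertoli-like class were set beside 5 genes of the Sertoli marker list in the same cells, as *Dhh* UMIs per 100 UMIs of *Aard*, *Cst9*, *Defb19*, *Defb36* and *Inha* together. The other markers of the list were left out, among them *Clu*, with 2611 UMIs in RT-like cells beside 1503 of the 5 genes. Ratios to the full list were not computed. Per 100 UMIs of the 5 genes, Sertoli-like cells had 1.07 *Dhh* UMIs (95% exact Poisson interval 1.04 to 1.10, counting error of *Dhh* only). Myoid-like (0.924, 0.721 to 1.17), stromal-like (0.845, 0.582 to 1.19) and fibroblast-like cells (1.14, 0.95 to 1.36) overlapped this interval. Germ-like cells, which should lack *Dhh*, lay below it at 0.709 (0.633 to 0.790). Their clusters were not alike in *Dhh*. The highest had 12.6 ± 8.11 CPM, with 95 of the 321 germ-like *Dhh* UMIs, and the other germ-like clusters had means of 3.70 to 6.47 CPM. The value of Leydig-like cells, 0.262 (0.131 to 0.469), was not compared, because *Inha* (1841) and *Defb19* (1674) made up most of the 4197 UMIs it was divided by, whereas in myoid-like cells *Aard* led with 4200 of 7687. RT-like cells stood higher at 2.86 (2.07 to 3.85; 43 *Dhh* UMIs), and endothelial-like cells at 21.3 (14 to 30.9; 27 *Dhh* UMIs). These values pool libraries that differed. By library, Sertoli-like cells had 0.831 and 1.24 in control 1 and 2 and 0.632 and 1.77 in *Sox17*-cKO 1 and 2, and myoid-like cells 0.886, 0.461, 0.716 and 1.41 in the same order, so that myoid-like cells were above Sertoli-like cells in both replicate 1 libraries and below them in both replicate 2 libraries. Germ-like cells, at 0.624, 1.33, 0.477 and 2.73, did the opposite. Stromal-like cells were below Sertoli-like cells in each library. RT-like cells, at 1.89, 6.71, 0.323 and 2.51, were above them except in *Sox17*-cKO 1, where 1 *Dhh* UMI was counted. The part of free RNA in these values was not tested.

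**Figure D1:**
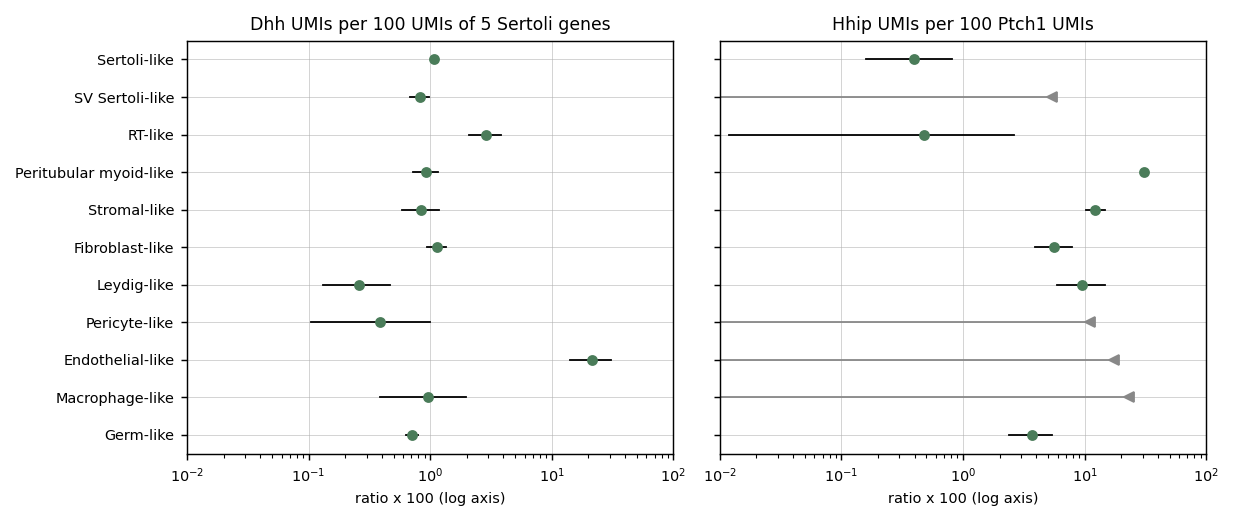
*Dhh* UMIs per 100 UMIs of 5 Sertoli-cell genes (left) and *Hhip* UMIs per 100 *Ptch1* UMIs (right) in each class, 4 libraries pooled, on log axes. Points are ratios, black lines exact 95% Poisson intervals on the numerator count and grey triangles upper bounds where no *Hhip* UMI was counted. Endothelial-like cells stand apart on the left at 21.3 and myoid-like cells lead on the right at 30.8.

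*Ptch1*, the receptor and a target of the pathway, was highest in peritubular myoid-like cells. Levels there were 671.9 and 411.6 CPM in control 1 and 2 and 612.6 and 381.0 CPM in *Sox17*-cKO 1 and 2 (mean 519 ± 145 CPM). Replicate 1 exceeded replicate 2 in both genotypes. Stromal-like cells had 121.7, 122.6, 135.3 and 163.4 CPM in the same order, and RT-like cells 109.7, 105.6, 144.8 and 129.9 CPM. The lowest myoid-like library was thus above the highest of every other class. The myoid-like level was 1.91 (SE 0.22) above the stromal-like level on the log2 scale (adjusted p = 4.5e-09), whereas stromal-like and RT-like cells were not apart (adjusted p = 0.11).

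Leydig-like cells had 24.2 and 97.7 CPM of *Ptch1* in the controls and 78.7 and 67.4 CPM in *Sox17*-cKO. The low value came from the library with 13 such cells. Their level was 0.97 (SE 0.26) above Sertoli-like cells on the log2 scale (adjusted p = 0.0015), but 0.57 without control replicate 2 (adjusted p = 0.10). Sertoli-like cells (48.8 ± 13.5 CPM) were followed by endothelial-like, SV Sertoli-like and fibroblast-like cells (45.0, 44.9 and 28.5 CPM), and no neighbours in this order passed the test. Fibroblast-like cells, which are not neighbours of Sertoli-like cells in it, were below them in each library. That comparison is given further below. In germ-like cells *Ptch1* was 3.35 to 18.0 CPM, and 484 of its 682 UMIs there came from 1 cluster of 769 cells, with *Zbtb16* and *Nanos3* among its leading genes. That cluster had 44.2 ± 24.4 CPM of *Ptch1*, and the other germ-like clusters had means of 2.56 to 6.07 CPM.

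*Hhip*, which encodes a membrane protein that binds and sequesters Hedgehog ligands, was highest in the same class. In myoid-like cells it was 169.5 and 134.9 CPM in control 1 and 2 and 121.8 and 136.2 CPM in *Sox17*-cKO 1 and 2 (141 ± 20.3 CPM). Stromal-like cells had 9.40 to 22.4 CPM and Leydig-like cells 0 to 12.2 CPM, so that myoid-like cells did not overlap any other class. Their level was 3.21 (SE 0.25) above stromal-like cells on the log2 scale (adjusted p = 1.3e-11). SV Sertoli-like, pericyte-like, endothelial-like and macrophage-like cells had no *Hhip* UMI.

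The balance of both targets differed between classes. Per 100 *Ptch1* UMIs, myoid-like cells had 30.8 *Hhip* UMIs (29.5 to 32.1), stromal-like cells 12.3 (10.2 to 14.6), Leydig-like cells 9.55 (5.91 to 14.6) and fibroblast-like cells 5.65 (3.89 to 7.94). By library, the myoid-like ratio was 25.2, 32.8, 19.9 and 35.8 in control 1 and 2 and *Sox17*-cKO 1 and 2, above the stromal-like ratio of 16.7, 11, 6.94 and 13.7 in each. RT-like cells, with 211 *Ptch1* UMIs, had 1 *Hhip* UMI, and Sertoli-like cells, with 1759, had 7. RT-like and Sertoli-like cells were thus classes with *Ptch1* and next to no *Hhip*.

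**Figure D2:**
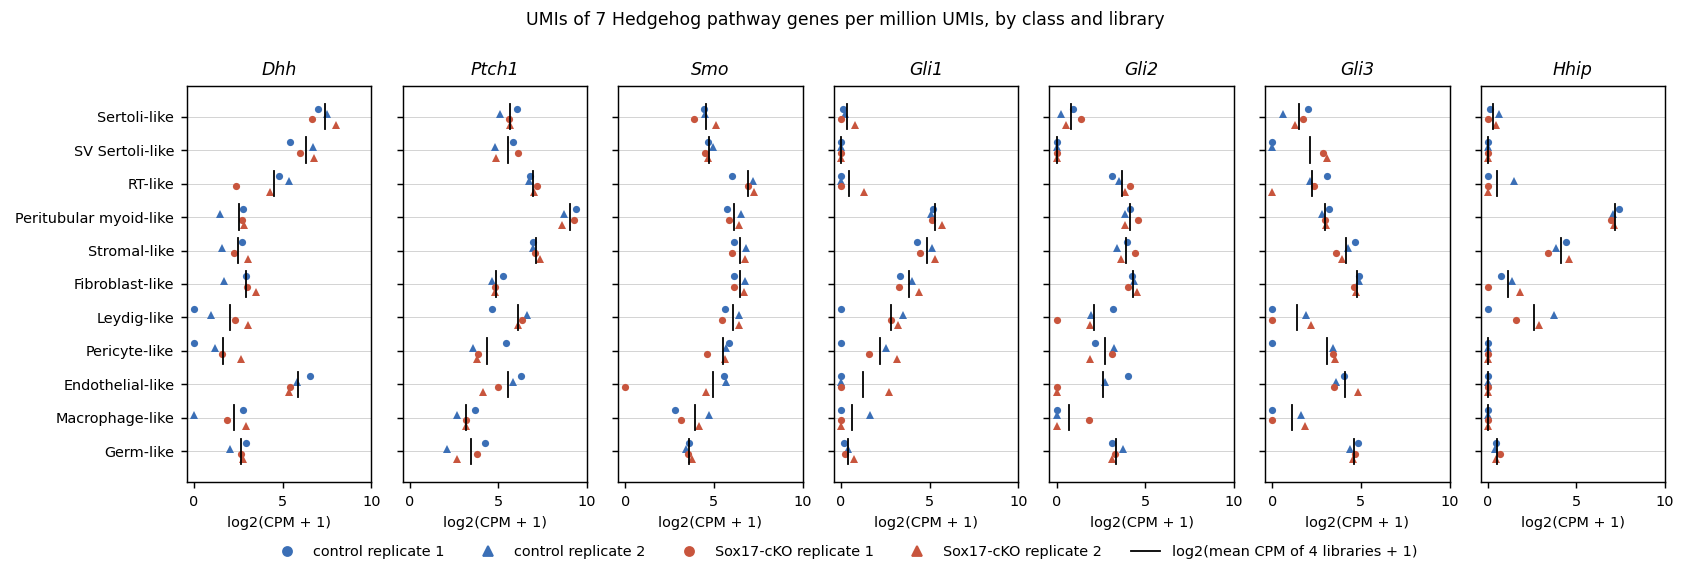
Level of each member as log2(CPM + 1) in 11 classes, with 1 point per library (blue control, red *Sox17*-cKO; circles replicate 1, triangles replicate 2) and a line at the log2 of the mean CPM + 1. *Dhh* is highest in Sertoli-like cells, *Ptch1*, *Gli1* and *Hhip* in peritubular myoid-like cells, and *Gli2* and *Gli3* in fibroblast-like cells.

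*Smo*, the membrane transducer held in check by Patched, had its highest mean in RT-like cells. It measured 64.3 and 143.7 CPM in control RT-like cells and 120.0 and 154.0 CPM in those of *Sox17*-cKO. Stromal-like, fibroblast-like, myoid-like and Leydig-like cells had means of 88.1 ± 24.5, 86.2 ± 20.3, 70.2 ± 18.4 and 65.0 ± 22.8 CPM, and no neighbours among these 5 classes differed past the threshold. Fibroblast-like and Leydig-like cells, not neighbours in this order, did differ (log2 difference 0.53, SE 0.19, edgeR adjusted p = 0.019). In each of these 5 classes both replicate 2 libraries were above both replicate 1 libraries, the opposite order to *Ptch1* in myoid-like cells. Pericyte-like cells had 44.2 ± 14.2 CPM. Sertoli-like cells had 13.8 to 33.4 CPM, and the stromal-like, fibroblast-like, myoid-like, Leydig-like and pericyte-like cells were above them by 1.12 to 2.28 on the log2 scale. SV Sertoli-like (25.2 ± 3.60 CPM), endothelial-like (29.6 ± 23.2 CPM, with no UMI in *Sox17*-cKO 1) and macrophage-like cells (14.1 ± 9.07 CPM) did not differ from Sertoli-like cells past the threshold.

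*Gli1*, the GLI activator that is itself a target, followed the order myoid-like, stromal-like, fibroblast-like and Leydig-like. In myoid-like cells it was 35.0 and 33.2 CPM in control 1 and 2 and 33.9 and 50.2 CPM in *Sox17*-cKO 1 and 2, and in stromal-like cells 18.4, 34.7, 20.7 and 38.6 CPM. These classes overlapped and did not differ past the threshold (log2 difference 0.53, SE 0.21, adjusted p = 0.093). Fibroblast-like cells (13.1 ± 5.28 CPM) were below stromal-like cells (adjusted p = 0.00054) and above Leydig-like cells (6.15 ± 4.45 CPM, adjusted p = 0.012). Sertoli-like cells had 8 *Gli1* UMIs in all and RT-like cells 1. SV Sertoli-like cells had none, neither of *Gli1* nor of *Gli2*.

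Relative to *Ptch1*, *Gli1* was highest outside the myoid-like class. Per 100 *Ptch1* UMIs there were 54.1 *Gli1* UMIs (48.3 to 60.4) in fibroblast-like cells, 24.5 (21.6 to 27.7) in stromal-like cells, 10.5 (6.63 to 15.7) in Leydig-like cells and 8.93 (8.26 to 9.63) in myoid-like cells. Pericyte-like cells had 24.2 (10.5 to 47.8), from only 8 *Gli1* and 33 *Ptch1* UMIs. Sertoli-like cells had 0.455 (0.196 to 0.896), below the 2.49 (1.45 to 3.99) of germ-like cells. By library, the ratio was 24.6, 62.7, 32.5 and 73.7 in fibroblast-like cells of control 1 and 2 and *Sox17*-cKO 1 and 2, and 5.21, 8.07, 5.54 and 13.2 in myoid-like cells. Stromal-like cells, at 15.2, 28.3, 15.3 and 23.6, lay between these classes in each library. Leydig-like cells, at 0, 10.6, 7.69 and 12.2, lay above myoid-like cells in 2 of the 4 libraries.

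*Gli2* and *Gli3*, which encode the GLI factors that act as the main activator and the main repressor, had another order. *Gli2* was 18.6 ± 2.89 CPM in fibroblast-like, 16.6 CPM in myoid-like, 14.2 CPM in stromal-like and 12 CPM in RT-like cells. *Gli3* was 28.8 and 29.3 CPM in control fibroblast-like cells and 24 and 25.8 CPM in those of *Sox17*-cKO. In myoid-like cells it was 5.92 to 8.05 CPM, below fibroblast-like cells (log2 difference -1.99, SE 0.25, adjusted p = 1.0e-08) and below stromal-like cells (-1.18, SE 0.29, adjusted p = 0.0031). The class with the highest means of *Ptch1*, *Gli1* and *Hhip* thus had less *Gli3* than fibroblast-like and stromal-like cells. Without control replicate 2 the difference from stromal-like cells was not past the threshold (adjusted p = 0.095). Less *Gli3* was not particular to the myoid-like class. Leydig-like and RT-like cells had lower *Gli3* means, 1.62 and 3.79 CPM (7 and 5 UMIs), and also less *Gli1*, 6.15 and 0.378 CPM. Germ-like cells had 23.7 ± 3.07 CPM of *Gli3*, the second highest mean after fibroblast-like cells (adjusted p = 0.012 between them). The germ-like clusters ranged widely in *Gli3*, with means of 32.4, 29.1 and 23.2 CPM in 3 clusters and of 6.74 and 1.45 CPM in the others.

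Against Sertoli-like cells, 6 of 7 members were higher and *Dhh* was lower in myoid-like and in stromal-like cells. Of all 11830 genes tested there, 67.4% and 64.3% passed the threshold, 36.1% and 35.3% as higher. In fibroblast-like cells 5 members were higher and *Dhh* was lower (all genes 68.6%, 36.9% higher), and the *Ptch1* difference of -0.42 (SE 0.23, adjusted p = 0.095) did not pass. That call depended on the processing, with values from -0.75 to 0.071 under other settings. In Leydig-like cells 5 members were higher and *Dhh* was lower (all genes 56.4%, 29.4% higher), with *Gli3* not past the threshold (0.61, SE 0.70). There the *Gli2* call (1.77, SE 0.74, adjusted p = 0.038) was lost without control replicate 1, control replicate 2 or *Sox17*-cKO replicate 2 (adjusted p of 0.12 to 0.22). Pericyte-like cells had 4 of 6 higher, *Smo* and the 3 GLI genes, and lower *Dhh* and *Ptch1* (-1.27, SE 0.40, adjusted p = 0.0056; all genes 56.9%, 30.8% higher), the latter not past the threshold in cells below 10% mitochondrial UMIs (-0.86, adjusted p = 0.096). In RT-like cells 5 members had at least 3 UMIs in both classes, of which *Ptch1*, *Smo* and *Gli2* were higher and *Dhh* was lower (all genes 51.3%, 27% higher); *Gli1* and *Hhip*, with 1 UMI each there, were not counted. SV Sertoli-like cells differed in *Dhh* alone of 4 (all genes 23%). Classes were formed from other genes of the same cells, so these p-values describe groups that the data defined.

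Between myoid-like and stromal-like cells 3 of 7 members passed the threshold, *Ptch1* and *Hhip* higher and *Gli3* lower in myoid-like cells, against 15.1% of all genes. Stromal-like cells exceeded Leydig-like cells in 5 of 7 members (all genes 34.5%, 20.3% higher), with *Gli1* 2.00 (SE 0.33) higher on the log2 scale, *Ptch1* 0.81 (SE 0.26, adjusted p = 0.014) and *Hhip* 1.18 (SE 0.44, adjusted p = 0.035). The last of these was lost without control replicate 1 (adjusted p = 0.10), and both *Ptch1* and *Hhip* calls without either *Sox17*-cKO library (adjusted p of 0.054 to 0.41). *Smo* was not apart there (0.43, SE 0.20, adjusted p = 0.087). Over the 17 pairs of classes compared, 78 of 109 values with at least 3 UMIs in both classes passed, from 7 of 17 for *Dhh* to 10 of 10 for *Hhip*, beside 41% of all gene values. The latter share had no floor of 3 UMIs, so the sets are not alike. For *Hhip* the floor left out pairs that passed and pairs that did not.

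**Figure D3:**
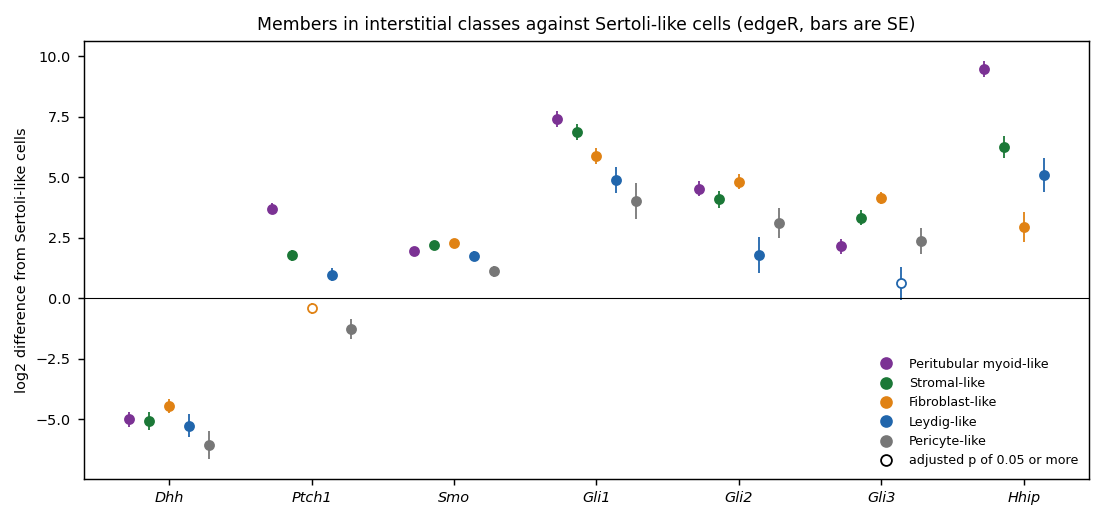
Log2 difference of each member in 5 classes of interstitial and peritubular cells from Sertoli-like cells, with bars of 1 SE; open circles did not pass the threshold, and *Hhip* in pericyte-like cells, with no UMI, is not drawn. *Dhh* lies below 0 in every class, *Hhip* reaches 9.47 in myoid-like cells, and *Ptch1* spreads from 3.69 to -1.27.

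The share of cells with a UMI was compared after each cell was thinned to 2000 UMIs, because median UMIs ranged from 3190.5 to 5513 over the libraries in Sertoli-like cells, from 5520.5 to 7836.5 in myoid-like cells and from 7371 to 8993 in germ-like cells. *Dhh* was detected in 24.1% of 5353 thinned Sertoli-like cells (45.2% unthinned; 623 shallower cells left out), against 1.12% of germ-like cells (4.18% unthinned). Shares in myoid-like, stromal-like, fibroblast-like and Leydig-like cells were 0.818% to 1.19%, at the germ-like background. In SV Sertoli-like, endothelial-like and RT-like cells they were 15.2%, 8.45% and 5.02%, and the lower bounds of their exact binomial intervals (10.6%, 3.16% and 2.53%) lay above the germ-like upper bound of 1.40%. These shares pool libraries that differed. In *Sox17*-cKO 1 the RT-like *Dhh* level was 4.14 CPM (1 UMI), below germ-like cells of that library (5.36 CPM). In every other library RT-like cells were above germ-like cells. Among the 71 endothelial-like cells, 6 had a *Dhh* UMI.

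*Ptch1* was detected in 51.6% of thinned myoid-like cells (84.0% unthinned), 20.5% of RT-like, 18.0% of stromal-like and 13.1% of Leydig-like cells, against 1.76% of germ-like cells (6.70% unthinned), among which the *Ptch1*-bearing cluster named above was counted. *Hhip* was detected in 21.2% of myoid-like (51.1% unthinned), 2.45% of stromal-like and 1.59% of Leydig-like cells, against 0.104% of germ-like cells (0.36% unthinned). *Gli1* was in 8.84% of myoid-like (23.5% unthinned) and 6.94% of stromal-like cells, also against 0.104% (0.245% unthinned). In unthinned myoid-like cells *Hhip* was found in 53.9% of cells with and 36.3% of cells without a *Ptch1* UMI, and depth per cell was not held fixed in that comparison.

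**Figure D4:**
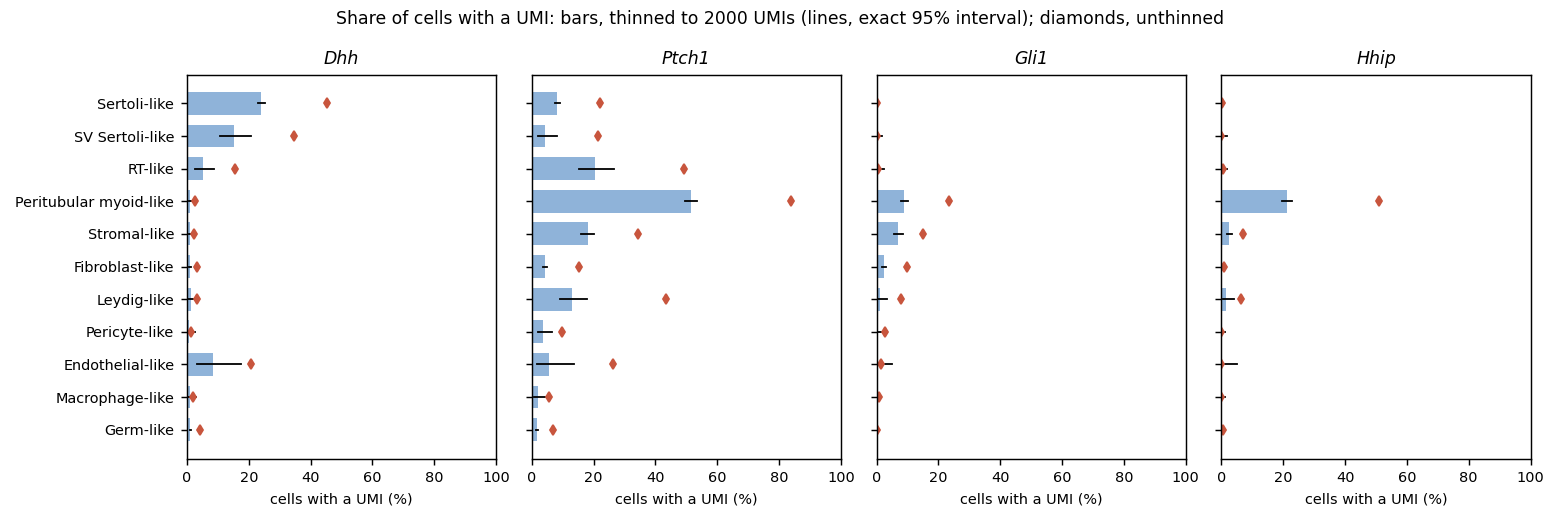
Share of cells with a UMI of *Dhh*, *Ptch1*, *Gli1* and *Hhip* in each class, 4 libraries pooled. Bars are cells thinned to 2000 UMIs with exact 95% binomial intervals (counting error only), and diamonds are unthinned cells; *Dhh* reaches 24.1% in Sertoli-like cells and *Ptch1* 51.6% in myoid-like cells.

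Of 41 other genes of the pathway, 29 passed the filter on low counts. Against Sertoli-like cells, 16 were higher and 8 lower in myoid-like cells, with a median log2 difference of 1.05 beside 0.02 over all genes. In stromal-like cells 15 were higher and 5 lower (median 1.10 beside 0.06), in fibroblast-like cells 18 and 6 (1.21 beside 0.03), in Leydig-like cells 16 and 4 (1.41 beside -0.03), and in pericyte-like cells 16 and 3 (1.70 beside 0.01). In this order, 82.8%, 69.0%, 82.8%, 69.0% and 65.5% of the 29 passed the threshold, beside 67.4%, 64.3%, 68.6%, 56.4% and 56.9% of all genes. The co-receptors that present ligand to Patched were among those with the smallest p-values. *Boc* was 8.46 (SE 0.28), 8.61 (SE 0.30), 8.81 (SE 0.27) and 7.58 (SE 0.40) higher on the log2 scale in myoid-like, stromal-like, fibroblast-like and Leydig-like cells, from 0.08 CPM in Sertoli-like cells. *Gas1* was 5.64 (SE 0.18) higher in fibroblast-like, 4.52 (SE 0.18) in stromal-like and 3.60 (SE 0.20) in pericyte-like cells. *Cdon* was 5.35 (SE 0.23) higher in Leydig-like cells.

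Some genes on the list are known as Hedgehog targets in other tissues. Of these, *Pdgfra*, a receptor of Leydig and stromal precursors, was 5.75 to 7.97 higher in myoid-like, stromal-like, fibroblast-like and Leydig-like cells, *Osr1* 9.25 (SE 0.31) higher in stromal-like cells, of which it is a leading gene, *Bmp4* 7.72 (SE 0.32) higher in fibroblast-like cells and *Bcl2*, which limits cell death, 3.94 to 4.39 higher in myoid-like, stromal-like, fibroblast-like and pericyte-like cells. *Cyp11a1* and *Star*, which act at the start of steroid synthesis, were higher in Leydig-like cells by 9.71 (SE 0.28) and 5.02 (SE 0.25), where both genes also served to name the class. Lower in myoid-like and stromal-like cells were the transcription factor *Mycn* (-1.97, SE 0.24, and -3.08, SE 0.33) and *Star* (-2.02, SE 0.34, and -1.55, SE 0.39). Regulators of the pathway that were lower in both classes were *Prkaca* (-1.09, SE 0.11, and -0.88, SE 0.13), the catalytic subunit of protein kinase A, which restrains GLI activation, and *Tulp3*, a protein of ciliary trafficking (-0.97, SE 0.17, and -0.57, SE 0.18).

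Genotypes were compared within 8 classes, where 31 member values passed the filter. None passed the threshold, none had an unadjusted edgeR p under 0.05, and DESeq2 called none. Log2 differences (*Sox17*-cKO minus control) lay between -1.36 and 1.04, with a lowest adjusted p of 0.873. The genotypes did not overlap in 7 of the 31 values, a share near the 24.1% of all genes and classes together, and 16 of 31 had the same direction in both replicate numbers. Over all genes and these classes, 9 of 72251 values (0.0125%) passed, all in RT-like cells, and 1.35% had an unadjusted p under 0.05. DESeq2 called 17 genes in RT-like cells, 2 in fibroblast-like cells and 0 in the other 6 classes.

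In Sertoli-like cells *Dhh* differed by 0.05 (SE 0.47) on the log2 scale, and its *Sox17*-cKO levels lay on either side of both controls. Cell Ranger versions followed the replicate numbers, and within these numbers the ratio of *Sox17*-cKO to control CPM was 0.778 in replicate 1 and 1.40 in replicate 2. Without *Sox17*-cKO replicate 2 the difference was -0.80. In myoid-like cells *Ptch1* differed by -0.20 (SE 0.32), *Gli1* by 0.28 (SE 0.26) and *Hhip* by -0.29 (SE 0.23), with overlapping genotypes for each. In stromal-like cells *Ptch1* differed by 0.25 (SE 0.28) and *Gli3* by -0.67 (SE 0.43), both without overlap between genotypes. *Ptch1* in Leydig-like cells differed by -0.08 (SE 0.45), with ratios of 3.26 and 0.690 in replicates 1 and 2.

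The lowest p belonged to *Dhh* in RT-like cells, at 26.5 and 39.8 CPM in control 1 and 2 and 4.14 and 18.1 CPM in *Sox17*-cKO 1 and 2. Both *Sox17*-cKO libraries were below both controls, by -1.36 on the log2 scale (SE 0.61, edgeR adjusted p = 0.873), with ratios of 0.156 and 0.455 in replicates 1 and 2. These levels rest on 43 UMIs in all, and 4.14 CPM is 1 UMI. The 11 Sertoli markers together were 2978 to 3967 CPM in RT-like cells of the controls and 3380 to 3843 CPM in those of *Sox17*-cKO, with *Amh* at 0 in all 4 libraries. Of these UMIs *Clu* supplied 2611, *Aard* 978, *Amhr2* 726 and *Sox9*, which RT cells also express, 718, so the sums are not a measure of Sertoli-cell RNA alone. Their part in the *Dhh* values was not tested. *Dhh* in fibroblast-like cells was 6.47 and 2.27 CPM in the controls and 7.03 and 10.1 CPM in *Sox17*-cKO, a difference of 1.04 (SE 0.56) in a class whose share of cells with a *Dhh* UMI was near that of germ-like cells, and where the Sertoli markers summed to 1373 and 353 CPM in the controls and 1401 and 871 CPM in *Sox17*-cKO.

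**Figure D5:**
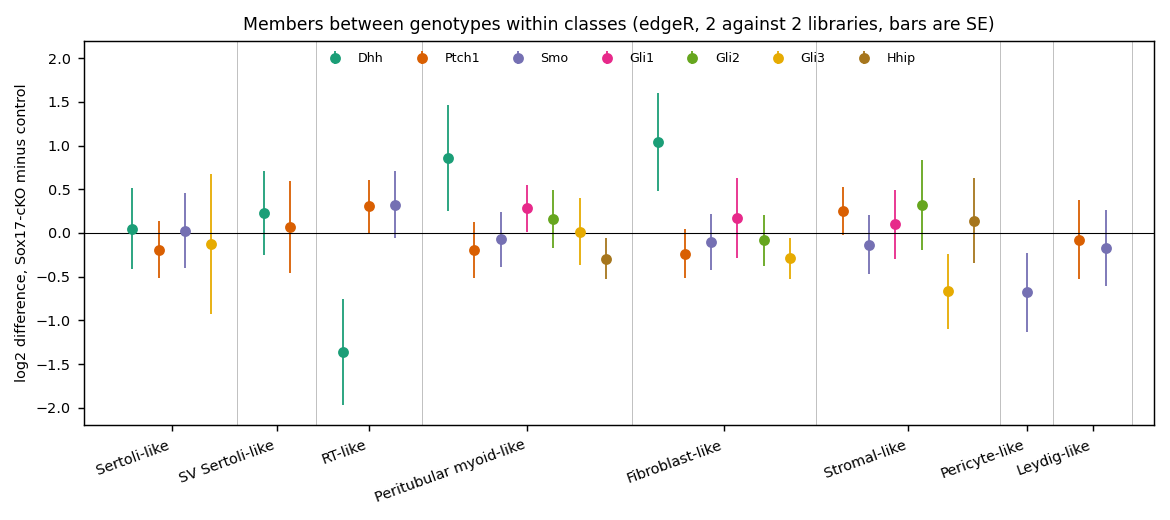
Log2 difference between *Sox17*-cKO and control for the 31 member values tested in 8 classes, with bars of 1 SE (2 against 2 libraries). No value passed the threshold; *Dhh* in RT-like cells is lowest at -1.36 and *Dhh* in fibroblast-like cells highest at 1.04.

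The change between genotypes was also compared between Sertoli-like cells and the pooled myoid-like, stromal-like, fibroblast-like, Leydig-like and pericyte-like cells. That fit had no library term, so the pairing of both sums from the same library was not used. The mix of pooled classes also differed between libraries. There were 318 and 812 myoid-like cells in control 1 and 2 and 191 and 1025 in *Sox17*-cKO 1 and 2. Fibroblast-like cells numbered 579, 968, 498 and 784 in the same order. A change of mix and a change within classes cannot be told apart in these sums. The difference of changes was 0.88 (SE 0.80) for *Dhh* and -0.10 (SE 0.44) for *Ptch1*, with unadjusted edgeR p-values of 0.30 to 0.90 over the 7 members and none past the threshold. Of all 14096 genes, 0 passed it and 111 (0.787%) had an unadjusted p under 0.05. Of the 41 other pathway genes, 8 to 32 were tested per class and none passed.

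Genes most like a member were ranked by Pearson correlation of log2 CPM over 44 sums, 11 classes in each of 4 libraries, among 11830 genes. The points share libraries and class depth, and the values are descriptions. For *Dhh* they were *Wipf3* (0.879), *Tdrp* (0.832), *Edn1* (0.827), *Tmem255a* (0.824) and *Sema7a* (0.820). For *Ptch1* they included *Klhdc8b* (0.779), *Hhip* (0.772), *Zfp618* (0.768) and *2700046A07Rik* (0.757). For *Gli1* the values were 0.930 for *Dpep1* and 0.900 to 0.904 for *Tcf23*, *Adamtsl2*, *Fmo1* and *C1qtnf3*. For *Hhip* the first was the long intergenic RNA gene *Gm44691* (0.964), then *Kcng4* (0.910), *Rprml* (0.902), *Kcnip1* (0.901) and *Cyp26b1* (0.900), an enzyme that degrades retinoic acid and a leading gene of the myoid-like class.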

How the data were processed

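Single-cell RNA was measured with the 10x Genomics 3′ kit in 2 control and 2 *Sox17*-cKO libraries. The authors deposited whole UMI counts per gene and barcode, made with Cell Ranger against mm10; per the file headers the version was 6.0.2 for replicate 1 and 6.1.2 for replicate 2 of both genotypes. The labels and the methods name different kit versions.

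Barcodes with 1000 to 4500 detected genes were kept. The mitochondrial limit of 1% in the study's methods would have left 212 cells and was not applied, a choice made with the counts known. Counts were integrated by canonical correlation and clustered at a resolution of 0.4 on 20 principal components of 2000 variable features (Seurat 5.3.0 under R 4.3.3). These features left out the members and 41 other pathway genes. A cluster took a class name from a marker list when the list's score reached 0.75 and at least 3 markers were each detected in over 25% of its cells. It stayed unnamed where another list had more markers among its 10 leading genes, or where at least 3 of these were cell cycle genes. Scrublet (Scanpy 1.11.5, Python 3.11.15) scored doublets and called 0, 208, 0 and 330 of all barcodes in control 1 and 2 and *Sox17*-cKO 1 and 2. Of these, 0, 43, 0 and 104 were within the gene limits and were kept. The 0 calls in both replicate 1 libraries cannot be read as an absence of doublets, and why the caller gave none was not tested. UMIs were summed per class and library. Sums were compared with edgeR 4.0.16 (TMM normalization, filterByExpr, quasi-likelihood F test, Benjamini-Hochberg adjustment over all genes tested, threshold 0.05, two-sided), with the library as a block between classes and 2 against 2 libraries between genotypes. The difference of changes was fitted without a library block. The SE is the size of the log2 difference divided by the square root of F. CPM uses all UMIs of a class, and mean ± SD is over the 4 libraries. Member values with under 3 UMIs in either class of a pair were left out of counts and folds between classes, whereas shares of all genes had no such floor. Intervals and floors cover counting error only, and intervals of ratios only that of the numerator. DESeq2 1.42.0 was an alternative. The edgeR steps were tested on simulated data.

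Members and lists were chosen with earlier results of these data known. The text names the members, the 5 other pathway genes with the smallest adjusted p in each direction for each interstitial class against Sertoli-like cells (a selection of these is described), the 5 genes most like *Dhh*, *Ptch1*, *Gli1* and *Hhip*, and genes that name classes, except for genes that are not reported here; *Shh*, *Ihh* and the genes overlapping a member were added after their values were seen. GENCODE vM21 held 99.6% of the gene identifiers. The alternatives were DESeq2, no filter on low counts, library totals, a 10% mitochondrial limit, leaving out the top 5% of doublet scores, no integration, members kept in the clustering, a resolution of 0.8, a replicate block and leaving out each library. Sums without the Sertoli-like cluster above 20% mitochondrial UMIs were added after seeing the data.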

Additional observations from a re-analysis of the deposited data

Results flagged for a closer look

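Over 7 members in 3 sets of barcodes outside the classes, 3 of 21 values were above both controls in both *Sox17*-cKO libraries and 0 were below both. This share is under the 24.1% of all gene values that did not overlap between genotypes within classes, and the genotypes were not tested here. In barcodes under 1000 genes, *Gli3* was 13.8 and 17.4 CPM in *Sox17*-cKO 1 and 2, against 12.2 and 8.95 CPM in the controls. In barcodes over 4500 genes, *Hhip* was 2.49 and 2.51 CPM in *Sox17*-cKO, against 2.34 and 2.25 CPM in the controls. In the unnamed clusters, *Gli2* was 12.1 and 15.2 CPM in *Sox17*-cKO, against 11.6 and 9.51 CPM in the controls.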

How the results depend on the processing

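Of the 109 member values between classes with at least 3 UMIs in both, 78 passed the threshold, and 74 to 79 did so under the alternatives that kept all libraries and 68 to 77 with a library left out. For the other pathway genes, 107 of 145 values against Sertoli-like cells passed, 105 to 128 under the alternatives and 86 to 116 with a library left out. No member passed between genotypes, nor in the difference of changes between interstitial and Sertoli-like cells, under any alternative run. Shares of cells moved without thinning, from 24.1% to 45.2% for *Dhh* in Sertoli-like cells and, in myoid-like cells, from 51.6% to 84.0% for *Ptch1*, from 8.84% to 23.5% for *Gli1* and from 21.2% to 51.1% for *Hhip*. Library totals in place of TMM shifted differences from Sertoli-like cells by -0.33 to 0.14 on the log2 scale, of which the fibroblast-like shift was the largest. *Ptch1* in fibroblast-like against Sertoli-like cells (-0.42) became 0.071 in cells below 10% mitochondrial UMIs, and passed the threshold with no filter on low counts (-0.59), library totals (-0.75), no top doublet scores (-0.66), no integration (-0.61), members kept in the clustering (-0.52) and without control replicate 1 (-0.51) or 2 (-0.60). Besides the losses named above, *Gli2* in Leydig-like against Sertoli-like cells lost its call with no filter, library totals or no integration (adjusted p of 0.060 to 0.071), *Gli3* in myoid-like against Leydig-like cells without any 1 of 3 libraries, top doublet scores or integration, and *Ptch1* and *Hhip* in stromal-like against Leydig-like cells below 10% mitochondrial UMIs (adjusted p = 0.088 and 0.089). No integration and members kept in the clustering gave no SV Sertoli-like class.

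Small genotype differences changed direction. *Dhh* in Sertoli-like cells (0.05) was -0.22 without control replicate 1 and -0.80 without *Sox17*-cKO replicate 2. *Ptch1* in myoid-like cells (-0.20) was 0.18 and 0.095 without these libraries and ranged from -0.55 to 0.18 with a library left out, and *Gli1* there (0.28) ranged from -0.093, without *Sox17*-cKO replicate 2, to 0.51. *Ptch1* in Leydig-like cells (-0.08) was 0.069 with DESeq2 and 0.015 with no integration, and ranged from -0.45 to 1.56 with a library left out, the highest without control replicate 2 and 0.010 without *Sox17*-cKO replicate 2. With a library left out, 1 arm held 1 sample, assumed to vary like the other. The cause of these changes was not tested.

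The replicate numbers coincide with the Cell Ranger version. Samples with the same number deviated together, with a correlation of 0.212 to 0.573 over the genes of a class. They were also alike in the share of germ-like cells. It was 40.6% and 35.4% in replicate 1 of control and *Sox17*-cKO, and 24.5% and 21.0% in replicate 2. What the number stands for cannot be told from 2 pairs. With the replicate block, *Dhh* in Sertoli-like cells was -0.072, *Pdgfra* in RT-like cells was the only 1 of 167 values of other pathway genes to pass (0.96, SE 0.24, adjusted p = 0.011), and calls over all genes rose from 9 to 224 in RT-like, from 0 to 29 in myoid-like and from 0 to 16 in stromal-like cells, with no member among them. Depth limits the Leydig-like values, which rest on 13 to 108 cells per library, and the RT-like *Dhh* values.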

Other observations

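The 7828 barcodes over 4500 genes, left out by the gene limits, held 55.9% of all UMIs. They had 63.5% of all *Dhh* UMIs (12256, against 6273 in kept cells), 62.7% of those of *Gli3*, 50.6% of *Gli2*, 50.4% of *Smo* and 40.7% of *Ptch1*, but 15.6% of *Gli1* and 16.5% of *Hhip*. These barcodes were not assigned to classes.

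An unnamed cluster of 242 cells, with genes of the cell cycle and the mesothelial genes *Slpi*, *Upk3b* and *Fxyd3* among its leading 10, had *Ptch1* at 144.2 and 123.6 CPM in control 1 and 2 and 152.3 and 105.2 CPM in *Sox17*-cKO 1 and 2. Its *Hhip* was 33.6, 67.4, 49.7 and 52.6 CPM and its *Gli1* 11.2, 16.8, 18.7 and 21.0 CPM in the same order. In all it held 130 *Hhip* and 317 *Ptch1* UMIs, which are outside the class ratios above. Pooled over libraries, that was more *Hhip* per *Ptch1* UMI than in myoid-like cells (2283 and 7416 UMIs). In control 1 it was less (21 and 90 UMIs, against 358 and 1419). The list this cluster scored best on was that of fibroblasts (score 1.49, 7 of 7 markers detected). It stayed unnamed because another list had more markers among its leading genes.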
